A study of Mus musculus with 10 samples.

Results

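Ovarian macrophage and complement genes were followed, 10 in all. They were the colony-stimulating factor Csf1 and its receptor Csf1r, the complement subunits C1qa, C1qb and C1qc, and the mannose receptor Mrc1. The others were the lysosomal genes Cd68 and Lyz2, and the surface proteins Adgre1 and Ptprc. They were chosen by symbol, matched through Ensembl identifiers, and all 10 were found among the 22891 genes of the table. All 10 also passed the filter on low values (average level 10 or more once taken off the log scale), as did 15629 genes in all. The measurement was RNA-seq of total RNA from whole ovaries, with 5 libraries labelled Uba3 cKO and 5 labelled control. Every mouse was 3 weeks old, non-stimulated and of the mixed C57/Bl6/N;129SvEv7 strain. Uba3 is the catalytic chain of the E1 enzyme for NEDD8, a ubiquitin-like protein that cells attach to cullins and other targets. The labels name neither the Cre driver nor the deleted exons, so the cells that lost Uba3 are not given, and they do not say whether each ovary came from a different animal. P-values therefore measure the spread between these libraries.

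Macrophages are resident immune cells of the ovary, found in the stroma between follicles and around vessels, where they clear dying follicle cells and take part in vessel remodelling. Their survival depends on CSF1 signalling through CSF1R. In many tissues they are a main source of C1q, the recognition part of the classical complement pathway, which is built from the A, B and C chains and also tags dying cells for uptake.

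Whole-ovary RNA mixes these cells with oocytes, granulosa, theca, stromal and vessel cells. A difference in any macrophage gene can come from macrophage number, from RNA per macrophage or from other cells that make the same transcript. These cannot be told apart here. Of 22 further macrophage genes, 17 passed the filter, among them Lgmn and Maf, the highest of them, but 5 did not. Among those 5, Itgam lay at 0.56 to 0.64 and Folr2 at 1.17 to 1.26 on the log2 scale over all 10 libraries, so these common surface markers were close to the bottom of the scale. Library medians ran from 6.29 to 6.44, and no pair of libraries was identical. Uba3 itself averaged 10.12 ± 0.069 in Uba3 cKO ovaries and 10.12 ± 0.18 in control ovaries (SD, n = 5 each), a difference of 0.0032 (SE 0.081, exact permutation p = 1), so the gene-level value does not check the labels.

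Promoters were compared for the motif of PU.1, the transcription factor that directs macrophage gene programmes. The letters GAGGAA, searched on either strand, occurred in 5 of the 8 RefSeq promoters (GRCm38.p6, windows of 300 bases around the start site) that matched 7 of the 10 genes, against 28.3% of 32851 promoters of the same length. Other searches found the RUNX letters TGTGGT in 2 of the 8, against 16.8% of all promoters, the C/EBP letters TTGCNNAA in 1, against 10.8%, and the AP-1 letters TGANTCA in 1, against 7.81%. In these 8 promoters no match of one motif overlapped a match of another. C1qb and C1qc are shown because their values kept together across libraries; C1qb, C1qc and C1qa follow one another in that order on chromosome 4, and Mrc1 is shown because it holds 3 matches. Capitals mark GAGGAA or its reverse complement.
C1qb (chr4:136886151-136886450, minus strand): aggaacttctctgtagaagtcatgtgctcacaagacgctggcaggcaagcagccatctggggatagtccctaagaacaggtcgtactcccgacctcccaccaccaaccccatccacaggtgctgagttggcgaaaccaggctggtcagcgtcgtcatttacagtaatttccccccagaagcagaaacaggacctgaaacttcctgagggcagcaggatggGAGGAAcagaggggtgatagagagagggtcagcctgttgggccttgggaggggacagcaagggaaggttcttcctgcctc
C1qc (chr4:136892865-136893164, minus strand): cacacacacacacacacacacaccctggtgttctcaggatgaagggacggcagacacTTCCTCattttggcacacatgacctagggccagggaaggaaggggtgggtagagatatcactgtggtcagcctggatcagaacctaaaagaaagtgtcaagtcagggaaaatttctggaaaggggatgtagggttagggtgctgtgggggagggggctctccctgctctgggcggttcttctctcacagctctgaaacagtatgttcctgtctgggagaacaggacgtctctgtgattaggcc
Mrc1 (chr2:14229164-14229463, plus strand): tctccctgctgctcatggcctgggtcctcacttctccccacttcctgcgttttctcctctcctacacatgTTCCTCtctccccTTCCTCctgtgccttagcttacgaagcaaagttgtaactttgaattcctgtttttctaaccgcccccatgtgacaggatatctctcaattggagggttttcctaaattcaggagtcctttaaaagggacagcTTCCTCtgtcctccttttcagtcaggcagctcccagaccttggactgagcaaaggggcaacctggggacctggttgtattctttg
The C1qb match begins 30 bases before the start site, that of C1qc 193 bases before it, and those of Mrc1 180, 167 and 35 bases before it. These are letter matches, not measured sites.

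Among the complement chains, C1qa (ENSMUSG00000036887), the A chain, read 6.04, 5.999, 6.13, 5.82 and 5.66 in Uba3 cKO replicates 1 to 5, against 6.23, 5.74, 6.15, 5.78 and 6.08 in control replicates 1 to 5, all as deposited log2 values. C1qb (ENSMUSG00000036905), the B chain, read 6.56, 6.47, 6.67, 6.44 and 6.15 in Uba3 cKO ovaries, against 6.65, 6.29, 6.82, 6.46 and 6.63 in control ovaries. C1qc (ENSMUSG00000036896), the C chain, read 6.02, 5.85, 5.91, 5.78 and 5.33 in Uba3 cKO ovaries, against 6.07, 5.74, 6.11, 5.54 and 6.01 in control ovaries. Uba3 cKO replicate 5 was the lowest library for every chain, control replicate 1 or 3 was the highest, and the groups overlapped throughout.

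Mean C1qa was 5.93 ± 0.19 in Uba3 cKO ovaries and 5.996 ± 0.22 in control ovaries (SD, n = 5 each), a difference of -0.065 (limma SE 0.12, 95% interval -0.33 to 0.20). Mean C1qb was 6.46 ± 0.20 in Uba3 cKO ovaries and 6.57 ± 0.20 in control ovaries, a difference of -0.11 (SE 0.12, interval -0.37 to 0.15). Mean C1qc was 5.78 ± 0.27 in Uba3 cKO ovaries and 5.89 ± 0.24 in control ovaries, a difference of -0.12 (SE 0.14, interval -0.43 to 0.19). The differences were smaller than the spread between libraries, with an adjusted p of 0.9999 for each in limma with Benjamini-Hochberg adjustment, a value all 10 genes shared. The differences moved with single libraries: without Uba3 cKO replicate 5 they were 0.0020 for C1qa, -0.034 for C1qb and -0.0062 for C1qc. They were -0.13 for C1qa and -0.18 for C1qb without control replicate 2, and -0.21 for C1qc without control replicate 4.

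Within a library, C1qb was the highest of the 3 chains throughout. It stood above C1qa by 0.55 ± 0.086 and above C1qc by 0.68 ± 0.13 (SD over 10 libraries, log2 values not corrected for length), while C1qa minus C1qc was 0.13 ± 0.11, from -0.0045 to 0.33. Their mean per library ran over a 1.56-fold range and was 6.05 ± 0.21 in Uba3 cKO ovaries and 6.15 ± 0.21 in control ovaries (SD, n = 5 each).

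**Figure D1:**
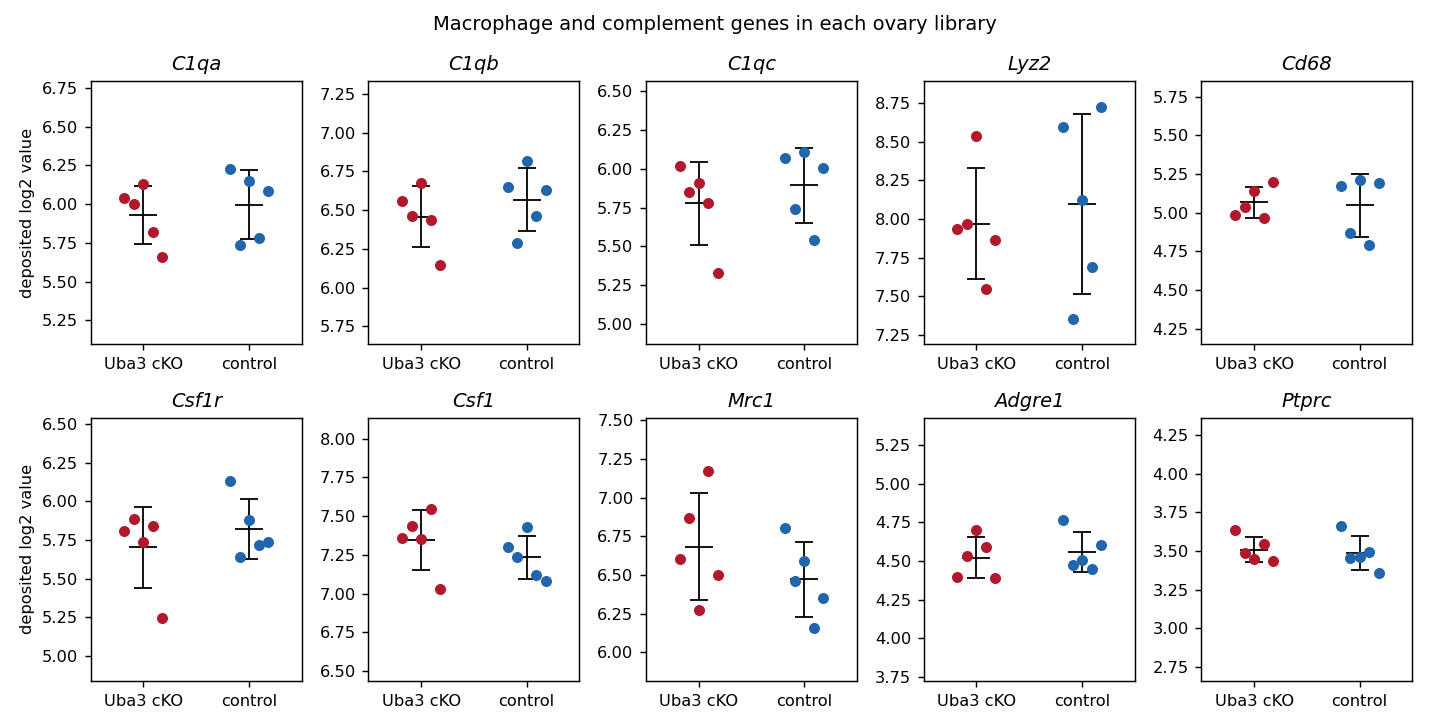
Deposited log2 value (y axis) of each of the 10 macrophage and complement genes in 5 Uba3 cKO libraries (left in each panel) and 5 control libraries (right); points are libraries, replicates 1 to 5 from left to right within a group, and bars are the mean with its SD. The y axes start at different levels but have the same span. The groups overlap for every gene, and Lyz2 is the most spread. Uba3 cKO replicate 5 is the lowest point for Adgre1, Csf1, Csf1r and each C1q chain.

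Turning to the lysosomal genes, Lyz2 (ENSMUSG00000069516), the myeloid lysozyme, read 7.93, 7.97, 8.54, 7.55 and 7.87 in Uba3 cKO ovaries, against 8.59, 7.36, 8.13, 7.69 and 8.73 in control ovaries. It spanned 1.37 log2 units, 2.58-fold, from control replicate 2 to control replicate 5, so the control ovaries alone covered the whole range. Its means were 7.97 ± 0.36 in Uba3 cKO ovaries and 8.10 ± 0.58 in control ovaries (SD, n = 5 each), a difference of -0.13 (SE 0.25, 95% interval -0.67 to 0.41). It was -0.31 without control replicate 2 and 0.029 without control replicate 5. The longest Lyz2 transcript, 1316 bases, matches Lyz1 at 95.8% over 1264 bases, so reads could be shared; Lyz1 itself was listed at a mean of 0.73.

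Cd68 (ENSMUSG00000018774), a glycoprotein of macrophage lysosomes, read 4.98, 5.04, 5.14, 4.97 and 5.20 in Uba3 cKO ovaries, against 5.18, 4.87, 5.21, 4.79 and 5.19 in control ovaries. The Uba3 cKO libraries sat inside the control range. The means were 5.07 ± 0.10 in Uba3 cKO ovaries and 5.05 ± 0.20 in control ovaries (SD, n = 5 each), a difference of 0.019 (SE 0.097, interval -0.19 to 0.23).

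Csf1r and its ligand Csf1 were next. Csf1r (ENSMUSG00000024621), the receptor that macrophages need to survive, read 5.81, 5.89, 5.74, 5.84 and 5.25 in Uba3 cKO ovaries, against 6.13, 5.64, 5.88, 5.72 and 5.74 in control ovaries. Uba3 cKO replicate 5 stood below all other libraries, while the remaining Uba3 cKO values lay among those of the control ovaries. The means were 5.70 ± 0.26 in Uba3 cKO ovaries and 5.82 ± 0.19 in control ovaries (SD, n = 5 each), a difference of -0.12 (SE 0.13, 95% interval -0.40 to 0.17). Without Uba3 cKO replicate 5 it was -0.0045. The longest Csf1r transcript shares 873 of its 4701 bases with Hmgxb3, a neighbour on the opposite strand with a mean of 9.82. Counting by strand is not stated, so the Csf1r level is uncertain.

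Csf1 (ENSMUSG00000014599), a growth factor that endothelial, stromal and other cells make, read 7.36, 7.44, 7.35, 7.54 and 7.03 in Uba3 cKO ovaries, against 7.30, 7.24, 7.43, 7.12 and 7.08 in control ovaries. Uba3 cKO ovaries held both the highest library, replicate 4, and the lowest, replicate 5. The means were 7.34 ± 0.19 in Uba3 cKO ovaries and 7.23 ± 0.14 in control ovaries (SD, n = 5 each), a difference of 0.11 (SE 0.11, interval -0.12 to 0.34). It was 0.060 without Uba3 cKO replicate 4 and 0.19 without Uba3 cKO replicate 5. Ligand minus receptor within a library, as a difference of log2 values not corrected for length, was 1.64 ± 0.10 in Uba3 cKO ovaries (1.55 to 1.78) and 1.41 ± 0.17 in control ovaries (1.17 to 1.60). The ranges overlapped, and this quantity, chosen after the values were seen, was not tested.

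Mrc1 (ENSMUSG00000026712), the endocytic mannose receptor that some macrophages and also lymphatic and sinusoidal vessel cells carry, read 6.60, 6.87, 6.27, 7.17 and 6.50 in Uba3 cKO ovaries, against 6.80, 6.46, 6.59, 6.16 and 6.35 in control ovaries. Replicates 2 and 4 of the Uba3 cKO ovaries exceeded every control library, and the other 3 lay within the control range. The means were 6.68 ± 0.35 in Uba3 cKO ovaries and 6.47 ± 0.24 in control ovaries (SD, n = 5 each). The difference of 0.21, a 1.16-fold ratio, had an SE of 0.16 and a 95% interval of -0.15 to 0.57. It was 0.088 without Uba3 cKO replicate 4 and 0.31 without Uba3 cKO replicate 3. Markers of endothelial cells moved with Mrc1 over the libraries, as described with the correlations.

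Of the surface markers, Adgre1 (ENSMUSG00000004730), which encodes an adhesion receptor long used as a mouse macrophage marker, read 4.40, 4.53, 4.70, 4.59 and 4.39 in Uba3 cKO ovaries, against 4.76, 4.48, 4.50, 4.45 and 4.60 in control ovaries. Ptprc (ENSMUSG00000026395), which encodes the pan-leukocyte phosphatase CD45, read 3.63, 3.49, 3.45, 3.54 and 3.44 in Uba3 cKO ovaries, against 3.66, 3.46, 3.46, 3.50 and 3.36 in control ovaries. Control replicate 1 was the highest library for each, and the groups overlapped. The lowest library was Uba3 cKO replicate 5 for Adgre1 and control replicate 5 for Ptprc.

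Adgre1 averaged 4.52 ± 0.13 in Uba3 cKO ovaries and 4.56 ± 0.13 in control ovaries (SD, n = 5 each), a difference of -0.036 (SE 0.083, interval -0.22 to 0.14). Ptprc averaged 3.51 ± 0.082 in Uba3 cKO ovaries and 3.49 ± 0.11 in control ovaries, a difference of 0.022 (SE 0.063, interval -0.11 to 0.16). Ptprc lay just above the filter of 3.32. The median SD over libraries was 0.0850 for genes with means of 2 to 4 and 0.174 for means of 6 to 8, so differences of low genes may be understated on the deposited scale.

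Set side by side, 4 of the 10 genes had a higher mean in Uba3 cKO ovaries (Csf1, Cd68, Mrc1 and Ptprc) and 6 had a lower mean, with a median difference of -0.051. Over all 15629 genes tested, 49.8% had a lower mean, and the median difference was 0.00034. No member passed an adjusted p of 0.05 in limma, nor did any other gene (0% called), the lowest adjusted p being 0.621 for Dip2c. At an unadjusted p of 0.05 it was again none of the 10, where 1.79% of all tested genes passed, 0.973% higher in Uba3 cKO ovaries and 0.819% lower. No member had groups that did not overlap, against 0.320% of tested genes. Exact two-sided permutation tests of the members gave p-values between 0.294 for Mrc1 and 0.881 for Cd68, where 5 against 5 libraries allows 0.00794. No member's 95% interval extended below -0.67 or above 0.57.

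**Figure D2:**
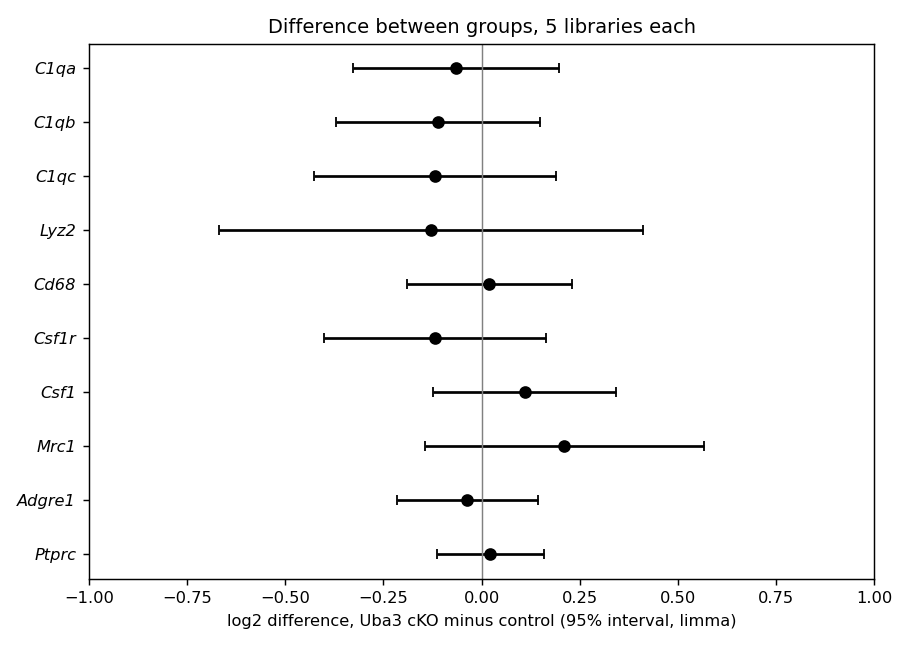
Difference in mean log2 value, Uba3 cKO minus control (x axis), for each of the 10 genes (y axis); points are estimates and lines are 95% intervals from limma, 5 libraries a group. Every interval crosses 0, and the widest is that of Lyz2, from -0.67 to 0.41.

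Relative levels were read per transcript length, as the log2 value minus the log2 of the longest transcript in kilobases (GENCODE M21). Lyz2 was highest at a mean of 7.64, then came C1qb at 6.39, C1qa at 5.91, C1qc at 5.57, Csf1 at 5.23, Cd68 at 4.76, Mrc1 at 4.15, Csf1r at 3.53, Adgre1 at 2.84 and Ptprc at 0.98. Between neighbours in this order, ranges over the 10 libraries overlapped except between Lyz2 and C1qb, Csf1 and Cd68, and Adgre1 and Ptprc. Within single libraries the upper gene was the higher in 10 of 10, save for Cd68 over Mrc1, which held in 9. With the median transcript length instead, Csf1 took place 3, C1qa 4, C1qc 5, Csf1r 6, Cd68 7 and Mrc1 8. On the same per-length scale, C1s1 at 7.43 and C1ra at 6.94, whose proteases pair with C1q, exceeded every C1q chain, and Itgam was at -1.63.

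**Figure D3:**
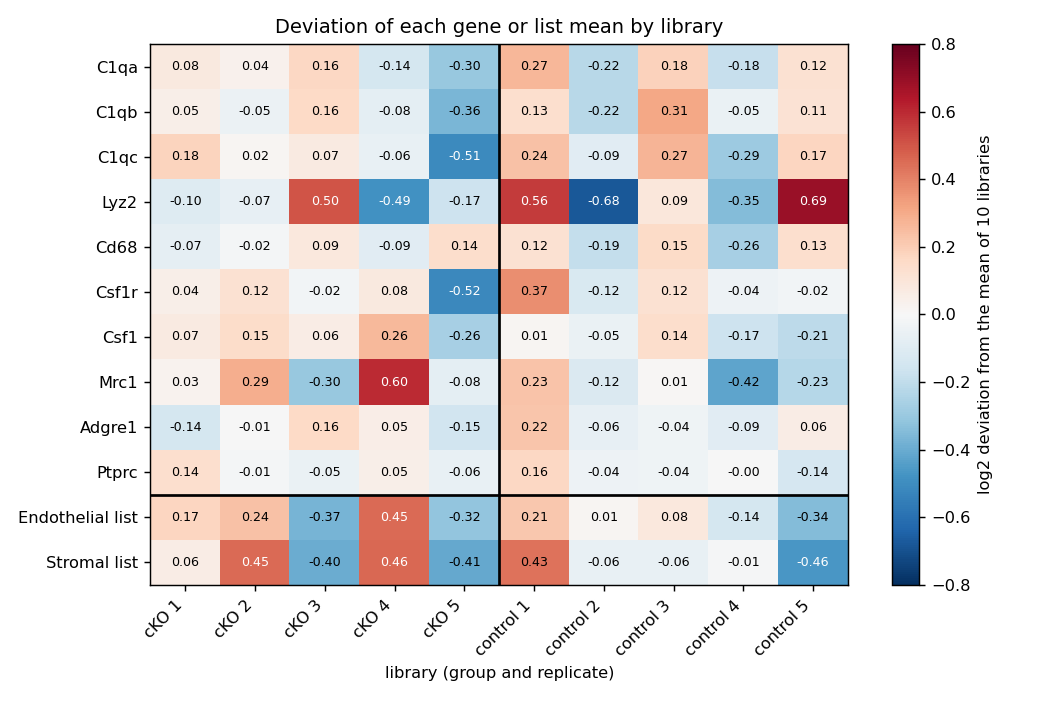
Each gene's value minus its mean over the 10 libraries (colour and printed number, log2 units), with genes down the page, libraries across it, Uba3 cKO on the left, and the means of the endothelial and stromal marker lists at the bottom. Uba3 cKO replicate 5 is below the mean for every gene but Cd68. Mrc1 is highest in Uba3 cKO replicate 4, as are Csf1 and the endothelial and stromal list means.

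Across the 10 libraries, the C1q chains tracked each other most closely. Among 45 pairs of members, Pearson's r was positive in 39, with a median of 0.41 and a range of -0.20 to 0.90; these points share libraries and ovary composition. Benjamini-Hochberg adjustment over the 45 left 5 pairs for Pearson's r and 3 for Spearman's rho (permutation test). C1qa with C1qb had r = 0.90 (permutation p = 0.00018, adjusted 0.00405) and rho = 0.95 (permutation p = 0.00014, adjusted 0.0063), and r = 0.80 without the 2 libraries farthest from the median. C1qa with C1qc had r = 0.90 (permutation p = 0.0001, adjusted 0.00405) and rho = 0.93 (adjusted p 0.011), and r = 0.90 without those 2. C1qb with C1qc had r = 0.87 (permutation p = 0.00106, adjusted 0.0159) and rho = 0.88 (adjusted p 0.0207). Its r fell to 0.68 without Uba3 cKO replicate 5 and control replicate 3. For both C1qa pairs, the 2 left out were Uba3 cKO replicate 5 and control replicate 2. In each pair of members, the libraries left out were farthest from the median of the gene named first.

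Csf1r also tracked C1q, with r = 0.76 to C1qa (permutation p adjusted 0.035) and 0.81 to C1qc (adjusted 0.0465). These relations rested on few libraries: r was 0.48 and 0.46 without the 2 farthest, and Spearman's rho, 0.73 and 0.72, had an adjusted p of 0.124 for each. Lyz2 with C1qa came close at r = 0.80 (adjusted p 0.0505), whereas Mrc1 with Lyz2 was the lowest of all pairs at -0.20. After each group's mean was taken off, r over the 10 libraries was 0.91 for C1qa with C1qb, 0.90 for C1qa with C1qc and 0.86 for C1qb with C1qc; within single groups of 5 none is given.

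**Figure D4:**
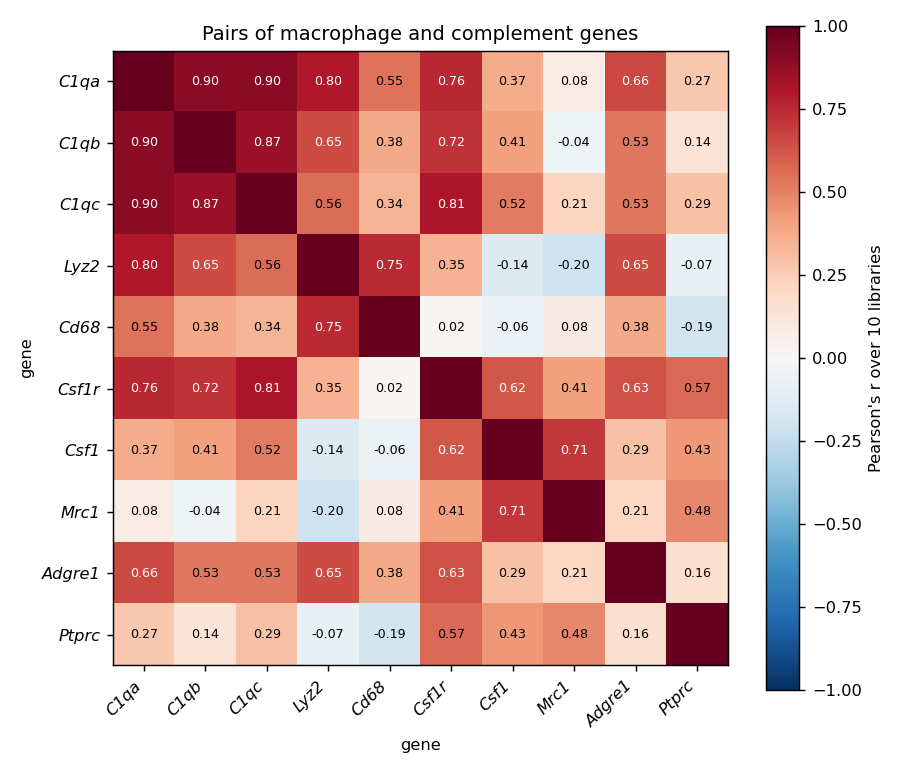
Pearson's r over 10 libraries (colour and printed number) between every pair of the 10 genes, which are listed on both axes. The C1q chains form the darkest block, 0.87 to 0.90, and Mrc1 with Lyz2 is at -0.20.

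Likeness to the rest of the transcriptome was ranked by r over the 10 libraries among 15628 other tested genes, as a description. For C1qa, C1qb was 2nd and C1qc 3rd; for C1qb, C1qa was 4th and C1qc 9th; and for C1qc, C1qa was 3rd and C1qb 12th. Members other than C1q ranked lower for each other: Lyz2 was 62nd for Cd68, Cd68 was 90th for Lyz2, Csf1 was 428th for Mrc1, and Csf1r was 705th for Ptprc. The closest member was C1qa for Lyz2, at 35th, and for Adgre1, at 232nd, and C1qc for Csf1r, at 82nd. Among the 11945 genes with a mean of at least 6, those most like the C1q mean were Plcd1 (r = 0.92), Clstn3, Arhgap17, Pcp4l1, Zdhhc14, Fam98c, Vti1a, Wdyhv1, Unk and Adam15. Those most like Mrc1 were Zfp467 (0.96), Gpr27, Plvap, Alpl and Tek (0.91), of which Plvap and Tek are vessel genes. Tek is also on the endothelial marker list set beside Mrc1 below, so these results are not separate. Those most like Lyz2 were Mpp1 (0.94), Inpp1, Jak3, Shisa9 and Ints9, and those most like Cd68 were Safb (0.96), Trim3, Supt7l, Cep131 and Tap1. Csf1r was most like Ssbp2 (0.94), Cav2, Spef1, Lmod1 and Tpm2, of which Lmod1 and Tpm2 are smooth muscle genes. Adgre1 was most like Atp2b4 (0.93), Tbc1d9b, Trib1, Tcaf1 and Tgfbrap1, Ptprc most like Casp12 (0.93), Akr1b10, Lyn, Dmpk and C1qtnf7, and Csf1 most like Foxs1 (0.94), Prnp, Tspyl4, Rdh13 and Ifitm3.

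Marker lists of other cells were then set beside the members, a comparison added after the values were seen. Of 40 relations between members and mean log2 values of stromal, endothelial, oocyte and theca markers, none passed the Benjamini-Hochberg threshold for Pearson's r and 1 did for Spearman's rho: Mrc1 with endothelial markers, r = 0.86 (permutation p = 0.00129, adjusted 0.0516), rho = 0.90 (permutation p = 0.00078, adjusted 0.0312), and r = 0.75 without the 2 farthest libraries. All 10 endothelial genes passed the filter, with a list mean of 7.25 to 8.08 in Uba3 cKO ovaries and 7.28 to 7.84 in control ovaries. Stromal markers gave r = 0.79 with Mrc1 (adjusted p 0.113), endothelial markers r = 0.77 with Csf1 (adjusted p 0.113) and theca markers r = 0.77 with Csf1r (adjusted p 0.113). Stromal markers with Ptprc had r = 0.70 and rho = 0.85 (adjusted p of rho 0.0552). The part of these cells in the values of Mrc1, Csf1, Csf1r and Ptprc was not tested.

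Further genes of the pathways are given by list, each gene with its own limma test. Of the 22 other macrophage genes, 5 of 17 tested had a higher mean in Uba3 cKO ovaries and 12 a lower one, with a median difference of -0.013. The smallest p belonged to Irf8, a transcription factor of the mononuclear phagocyte lineage, at 5.51, 5.46, 5.62, 5.68 and 5.54 in Uba3 cKO ovaries and 5.99, 5.88, 6.05, 5.72 and 5.74 in control ovaries. All Uba3 cKO libraries lay below all control libraries, as for 0.122% of tested genes, while 0.320% had no overlap in either direction. Irf8 was the only such gene among the 17 tested on this list. The difference was -0.31 (SE 0.087, limma adjusted p = 0.9999), and the exact permutation p was 0.00794, the smallest the design allows. Timd4, a phosphatidylserine receptor of resident macrophages, averaged 5.02 ± 0.13 in Uba3 cKO ovaries and 4.80 ± 0.082 in control ovaries (SD, n = 5 each), a difference of 0.22 (SE 0.077).

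Among 12 genes of the CSF1 axis, of CSF2 and its receptor, and of macrophage chemoattraction, 6 were tested. These were Il34, Csf2ra, Csf2rb, Cx3cl1, Mif and Cxcl12. The mean was higher in Uba3 cKO ovaries for 1 and lower for 5, with a median difference of -0.055. Cx3cl1, a chemokine that draws monocytes, averaged 9.43 ± 0.14 in Uba3 cKO ovaries and 9.64 ± 0.31 in control ovaries, a difference of -0.22 (SE 0.13), or -0.10 without control replicate 3. Complement components ran the other way in count, with 11 higher and 5 lower mean among the 16 tested of 23, and a median difference of 0.053. C3, the central component, averaged 8.89 ± 0.60 in Uba3 cKO ovaries and 8.51 ± 0.59 in control ovaries (SD, n = 5 each), a difference of 0.38 (SE 0.30), which was 0.18 without Uba3 cKO replicate 2 and 0.58 without Uba3 cKO replicate 1. Among the highest of the list, Masp1, a lectin-pathway protease, averaged 9.43 ± 0.37 in Uba3 cKO ovaries and 9.34 ± 0.44 in control ovaries, and C1s1 averaged 9.004 ± 0.25 in Uba3 cKO ovaries and 8.97 ± 0.24 in control ovaries (SD, n = 5 each). The C3 libraries ran from 8.10 to 9.69 in Uba3 cKO ovaries and 7.87 to 9.13 in control ovaries.

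Complement receptors and regulators had 4 higher and 8 lower mean among the 12 tested of 20, with a median difference of -0.049. Lrp1, a scavenger receptor that works with calreticulin, averaged 13.66 ± 0.15 in Uba3 cKO ovaries and 13.85 ± 0.23 in control ovaries (SD, n = 5 each). Of 13 lysosomal genes, 3 had a higher mean and 10 a lower one, median difference -0.012; Ctsd, a lysosomal protease, averaged 11.43 ± 0.074 in Uba3 cKO ovaries and 11.56 ± 0.23 in control ovaries. Of 7 genes of MHC class II presentation, 2 had a higher mean and 5 a lower one, median difference -0.067, with H2-Eb1 at 5.52 ± 0.23 in Uba3 cKO ovaries and 5.79 ± 0.37 in control ovaries (SD, n = 5 each), a difference of -0.26 (SE 0.17). Without control replicate 3 the H2-Eb1 difference was -0.15, and without control replicate 2 it was -0.41. No gene of these lists passed an adjusted p of 0.05 in limma, and 2, Irf8 and Timd4, passed an unadjusted one, which 1.79% of all tested genes did.

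**Figure D5:**
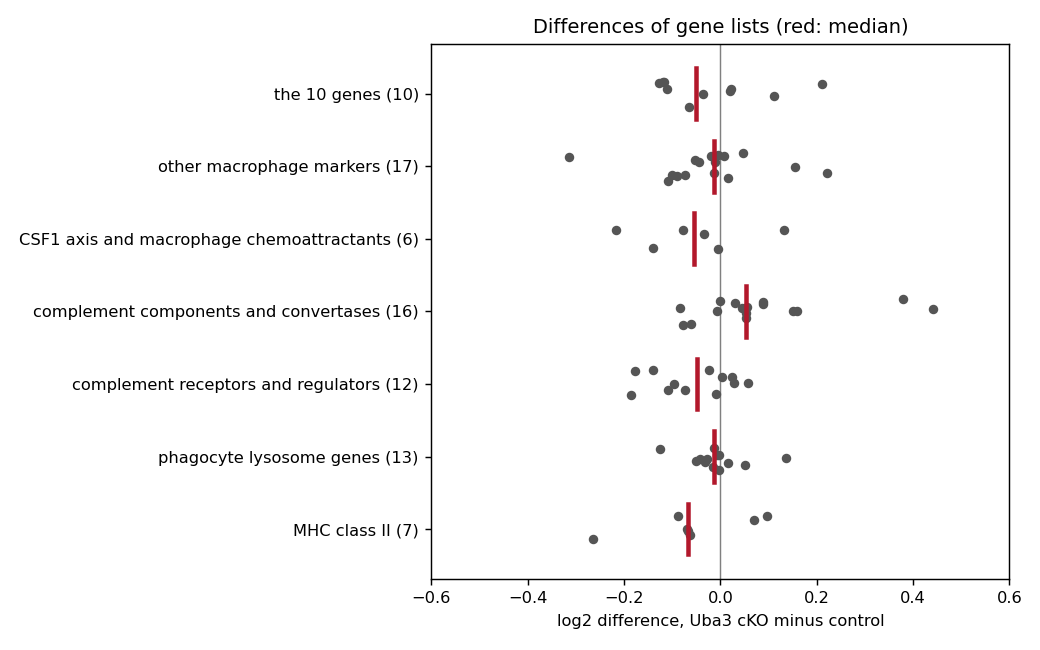
Difference in mean log2 value, Uba3 cKO minus control (x axis), for the 10 genes and the tested genes of 6 further lists (y axis, number of genes in parentheses); each point is a gene and the bar is the list's median. The medians lie near 0, and Irf8 at -0.31 is the lowest point of the other macrophage markers.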

How the data were processed

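RNA of 10 whole ovaries was sequenced on a NovaSeq instrument from TruSeq libraries, per the labels' protocols. The authors deposited log2 values per Ensembl gene and library, with an unnamed transform; fastp, STAR, featureCounts, DESeq2 and GRCm39 are named, per the submitters' processing notes, with no roles or versions. Depth is unknown and no counts could be recovered, so the number of libraries sets the precision and no pseudocount applied. Columns were matched to samples by the names in the labels.

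Symbols were found for 22188 of 22891 genes. Genes averaging 3.32 log2 (10 on a linear scale) or more were tested with limma 3.58.1 (R 4.3.3, mean-variance trend, no covariate, Benjamini-Hochberg over 15629 genes, threshold 0.05), after checking the test on simulated data, and single values with exact two-sided permutation tests. Correlations used 100000 resamples. Lengths and sequence matches came from GENCODE M21 (GRCm38), promoters from RefSeq; positions were not converted.

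The members and all 18 other lists (196 genes, 168 found, 130 past the filter) were chosen with earlier results of these data known. Most named list genes had the smallest p or the highest mean in their immune list, and some genes of this kind are not printed. Itgam, Folr2, C1ra, S100a8, Cd3g, Cd79a and Cfd were named outside this rule. No single gene was chosen from the 6 lists of non-immune cells. A gene that the rule would name is not reported here.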

Additional observations from a re-analysis of the deposited data

Results flagged for a closer look

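In 4 of 66 groups of 5 libraries checked, 1 library stood far from the others; chance alone marks about 1 in 20 groups. Csf1r was 5.25 in Uba3 cKO replicate 5, where the other Uba3 cKO ovaries lay between 5.74 and 5.89. Ciita, the master regulator of MHC class II genes, was 3.70 in Uba3 cKO replicate 4, against 3.41 to 3.47 in the others of that group. Mif, a cytokine, was 13.20 in control replicate 3, against 12.63 to 12.72 in the other control ovaries. Mpo, the neutrophil peroxidase, was 3.77 in control replicate 5, against 3.47 to 3.54 in the other control ovaries.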

How the results depend on the processing

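No gene passed an adjusted p of 0.05 in limma under any of 17 alternative settings; at an unadjusted p of 0.05, 604 genes passed with no filter, 133 with a minimum of 50, 268 with median centring, 306 with quantile normalization, 315 without the trend, 366 with library quality weights, 311 with a replicate block, and 198 (without Uba3 cKO replicate 4) to 392 (without Uba3 cKO replicate 5) when 1 library was left out. Deviations from the group mean correlated between same-numbered libraries at -0.27, 0.12, 0.060, -0.0093 and 0.28, and only number 5 matched its own number best. These values gave no sign of pairing by number but cannot show that the ovaries were unpaired. The replicate block gave 0 calls, and no member passed the threshold. Of 552 single-gene values, 521 kept their direction and 31 did not, none past the threshold; the cause was not tested. With quality weights C1qa was 0.0105, Clec9a -0.073 and Uba3 -0.048, and Uba3 was -0.0020 with median centring. Leaving out 1 library, values ran from -0.081 to 0.015 for Adgre1, -0.044 to 0.060 for Cd68, -0.13 to 0.0020 for C1qa, -0.31 to 0.029 for Lyz2, -0.0095 to 0.065 for Ptprc, -0.075 to 0.11 for Plac8, -0.017 to 0.16 for Zbtb46, -0.086 to 0.11 for Clec9a, -0.020 to 0.066 for Lck, -0.0022 to 0.11 for Tpsb2, -0.036 to 0.11 for Hdc and -0.056 to 0.066 for Uba3. Adgre1, Cd68 and Ptprc were not tested at the minimum of 50. With no filter, 8 of 22 other macrophage genes had a higher mean in Uba3 cKO ovaries. So did 3 of 11 genes on the list of CSF1 axis, CSF2 and chemoattractant genes. The same held for 7 of 18 complement receptors and regulators, 5 of 6 T and NK genes and 4 of 4 B cell genes.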

Other observations

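Markers of other leukocytes were mostly low in these ovaries. Of 9 neutrophil genes only Mpo was tested, at 3.85 ± 0.22 in Uba3 cKO ovaries and 3.55 ± 0.13 in control ovaries (SD, n = 5 each), a difference of 0.30 (SE 0.099, limma adjusted p = 0.9999), while S100a8 lay between 0.71 and 0.78 over all libraries. Of 12 T and NK genes 2 were tested. Cd4, the T-helper co-receptor, was at 4.38 ± 0.092 in Uba3 cKO ovaries and 4.23 ± 0.096 in control ovaries (SD, n = 5 each), a difference of 0.16 (SE 0.068, limma adjusted p = 0.9999), and Cd3g, a chain of the T cell receptor complex, lay between 0.28 and 0.38. Ms4a1, the B cell surface protein CD20, was at 6.25 ± 0.25 in Uba3 cKO ovaries and 6.04 ± 0.18 in control ovaries (SD, n = 5 each), a difference of 0.20 (SE 0.13, limma adjusted p = 0.9999) that ran from 0.13 to 0.29 when 1 library was left out, although Cd79a, a chain of the B cell receptor, lay between 2.46 and 2.71. Mpo and Cd4 passed an unadjusted p of 0.05 in limma, as 1.79% of tested genes did. Cfd, the complement protease best known from fat cells, had a wide spread, from 4.80 to 7.28 in Uba3 cKO ovaries and from 4.69 to 6.25 in control ovaries, and was picked out after its values were seen.

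Of 2 monocyte genes tested, Ace averaged 8.38 ± 0.15 in Uba3 cKO ovaries and 8.72 ± 0.53 in control ovaries (SD, n = 5 each), a difference of -0.34 (SE 0.20), or -0.15 without control replicate 3, and Plac8 differed by 0.020. Of 7 dendritic cell genes 5 were found and 2 tested, Zbtb46 at a mean of 8.83 and Clec9a at 6.61, while Flt3, Xcr1 and Ccr7 failed the filter. The tested genes differed by 0.063 and 0.020. Of 9 mast cell and eosinophil genes 6 were found and 2 tested, Tpsb2 at 3.72 and Hdc at 8.27, while Cpa3, Mcpt4, Cma1 and Siglecf failed the filter. These 2 differed by 0.052 and 0.043. Each difference lay within the spread between libraries, and which cells made these transcripts was not tested. Among non-immune cells, the mean was higher in Uba3 cKO ovaries for 9 of 10 stromal genes (median difference 0.049), 9 of 10 endothelial genes (0.060) and 6 of 8 granulosa genes (0.066). It was lower for 5 of 5 erythroid genes (-0.24), 9 of 10 oocyte genes (-0.043) and 5 of 6 theca genes (-0.10). Genes of a list share libraries and cell types, so these counts are not separate evidence of direction. For each list, the groups overlapped in the mean per library. Control replicate 1 was the highest library for the erythroid (8.55) and theca (8.71) lists. Uba3 cKO replicate 5 was the lowest for the oocyte list (9.06). None of these non-immune genes passed an adjusted p of 0.05 in limma, and 0 passed an unadjusted one.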
